A study of Homo sapiens with 24 samples.

Results

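The transcripts described here are 5 that the study followed one by one as carriers of internal N7-methylguanosine (m7G) bound by IGF2BP3: CYRIB, HUWE1, BPNT2, NDRG1 and ZDHHC9. They were taken by name from the study and matched to the count files through their Ensembl identifiers, 5 of 58676 gene rows, and all 5 were among the 13136 genes that passed the filter on low counts. The study picked them partly on its own measurements, so what they do here is not independent evidence of what they were picked for. The cells were HepG2, an established line from a human liver tumour, and received either AllStars negative control siRNA (siControl) or an siRNA directed at IGF2BP1 (siIGF2BP1), IGF2BP2 (siIGF2BP2) or IGF2BP3 (siIGF2BP3). Actinomycin D, which stops transcription, was present at 5 µg/ml for 0, 3 or 6 h before collection. The 24 libraries form 12 groups of 2, and all cells in the series were siRNA-transfected. The knockdowns were transient and were made in a single cell line, and the labels do not say whether replicates came from separate transfections, so the p-values below measure the spread between these libraries, which may be technical. Transfected plates were split over the 3 time points, so libraries of a condition may share a transfection, and fits over time treat its 6 libraries as independent.

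m7G is best known from the cap at the 5′ end of mRNA, and METTL1 with its partner WDR4 also places it inside RNA molecules. IGF2BP1, IGF2BP2 and IGF2BP3 are related RNA-binding proteins with RRM and KH domains that act on the stability, localization and translation of their mRNA targets, and IGF2BP1 and IGF2BP3 are oncofetal proteins that many liver cancers express again. When transcription is stopped, transcripts that are degraded fall with time, and the time course addresses whether depletion of an IGF2BP protein changes that fall.

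The 5 members encode unrelated proteins. CYRIB (CYFIP-related RAC1 interactor B) binds RAC1 and restrains the actin-polymerizing WAVE complex. HUWE1 is a very large HECT-type ubiquitin ligase. BPNT2 is a Golgi phosphatase that clears the by-product of sulfation reactions. NDRG1 is a stress-induced gene that responds strongly to hypoxia. ZDHHC9 is a palmitoyltransferase that, with GOLGA7, acts on HRAS and NRAS. In hg38 coordinates HUWE1 (ENSG00000086758.15) at chrX:53532096-53686752 and ZDHHC9 (ENSG00000188706.12) at chrX:129803288-129843909, both on the minus strand. The canonical HUWE1 transcript has 84 exons and a coding sequence of 13122 bases, longer than in 99.7% of 11385 tested protein-coding genes. BPNT2 has 5 exons and a 3′ UTR of 5865 bases, longer than in 94.8% of those genes. The 3′ UTRs of CYRIB (2552 bases), NDRG1 (1706 bases) and ZDHHC9 (3085 bases) were also longer than the median of 1320 bases, and that of HUWE1 (1216 bases) was shorter. CYRIB shares exon bases with 2 antisense lncRNAs, which held 3 and 6 reads over all libraries. NDRG1 shares 753 exon bases with a lncRNA on the same strand that the later annotation used here lists and the count files do not.

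To bring IGF2BP3 or METTL1 to a chosen place in a transcript by way of an inactive Cas13b, the study designed guide RNAs. The sites below are the stretches of HUWE1 and ZDHHC9 to which these guides were directed. Both are given 5′ to 3′ on the transcript strand, with every guanosine, the base that m7G modifies, in capitals. The HUWE1 site lies in coding exon 68 of 84 (chrX:53547899-53547933, minus strand), and the ZDHHC9 site in exon 11 of 11, in the 3′ UTR (chrX:129805690-129805725, minus strand, first 30 of 36 bases shown).
HUWE1 guide site: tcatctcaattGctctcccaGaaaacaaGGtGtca
ZDHHC9 guide site: GtaaGtaGttGtaGtaGaGataataattGa
The primer pairs used for methylation lie in coding exon 79 of HUWE1 and in exon 11 of ZDHHC9. The ZDHHC9 pair flanks the guide site, whereas the HUWE1 pair lies in another exon than the HUWE1 guide site. They are given as designed, so the reverse primers are antisense to the transcripts and their capitals pair with cytidines of the mRNA.
HUWE1 forward primer: tGccttGttccGtacctcac
HUWE1 reverse primer: ccacaatGcGtccGacaaac
ZDHHC9 forward primer: tGacacctaaGccccactct
ZDHHC9 reverse primer: atGccGctGGcatctcataa
The HUWE1 guide site holds 5 guanosines and the 30 bases of the ZDHHC9 site hold 8. The counts below are summed over whole genes and carry no information on methylation at these sites.

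Libraries held 31843248 to 74252042 gene reads and 50889 to 119088 reads of the ERCC spike-in. The targeted transcripts were examined first. Over the 3 time points IGF2BP1 fell by 82.3% in siIGF2BP1 (log2 change -2.50, SE 0.0189, edgeR adjusted p 2.44e-46), IGF2BP2 fell by 77.0% in siIGF2BP2 (log2 change -2.12, SE 0.0235, edgeR adjusted p 2.38e-40) and IGF2BP3 fell by 71.0% in siIGF2BP3 (log2 change -1.79, SE 0.0266, edgeR adjusted p 1.07e-35). IGF2BP3 was also 18.4% higher in siIGF2BP1 and IGF2BP1 9.17% higher in siIGF2BP3 on the TMM scale. All 10 hepatocyte and hepatoblastoma markers were expressed (66900 to 98900 CPM summed over the list in each library), and the 6 leukocyte, endothelial and fibroblast markers together reached 0.882 to 2.25 CPM, with none at 0 in every library. In siControl, 11 of 11 tested short-lived transcripts fell during actinomycin D with a median slope of -4.55 on the log2 scale over 6 h, and the 12 stable transcripts had a median of 0.06.

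Levels are given as TMM CPM, the share of all gene reads in a library scaled by the trimmed mean of M-values, and decay as reads per 1000 ERCC reads, a level relative to RNA added in proportion to total RNA. In siControl at 0 h, HUWE1 stood highest per length of annotated exon at 27.3 ± 0.488 TMM CPM per kb (SD, n = 2), followed by ZDHHC9 at 11 ± 0.424, BPNT2 at 10.0 ± 0.82, CYRIB at 5.17 ± 0.0166 and NDRG1 at 3.31 ± 0.63 TMM CPM per kb (SD, n = 2 each). The gap between ZDHHC9 and BPNT2 was about the size of their SDs, and the other neighbours in this order stood further apart than their SDs. The order below HUWE1 depends on the length used, however. All annotated exons cover 12002 bases in NDRG1 and 9632 in CYRIB, whereas their canonical transcripts have 3025 and 3904 bases. On chromosome 8 in hg38, also on the minus strand, lie CYRIB (ENSG00000153310.19) at chr8:129839593-130017504, BPNT2 (ENSG00000104331.8) at chr8:56957931-56993867 and NDRG1 (ENSG00000104419.14) at chr8:133237175-133302022. The lowest count of any member in any library was 876 reads (NDRG1) and the highest 41432 (HUWE1). Replicates differed by 3.17 to 7.83 times counting noise over all genes, measured as chi-square per degree of freedom. Over all genes the spread between libraries thus exceeded counting noise, which was not measured for single members. In bulk RNA, fewer cells with a transcript and less of it per cell cannot be told apart.

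The first comparison asked whether the members differed before transcription was stopped. At 0 h on the TMM scale, ZDHHC9 was lower in all 3 knockdowns, BPNT2 was higher in siIGF2BP1 and siIGF2BP2, and NDRG1 was lower in siIGF2BP3, while CYRIB and HUWE1 passed the test in none. Thus 2 of 5 members were called in siIGF2BP1, where 15.9% of all 13136 tested genes were called, 2 of 5 in siIGF2BP2 (12.1% of all genes) and 2 of 5 in siIGF2BP3 (9.39% of all genes). The median change of the 5 members was -0.02, -0.01 and -0.02 in the same order, beside 0.01, 0.02 and 0.00 for all genes. The 3 comparisons share the siControl libraries.

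ZDHHC9 gave the clearest difference. It was at 59.2 and 56.0 TMM CPM in the siControl libraries, 51.2 and 51.6 in siIGF2BP1, 49.5 and 50.7 in siIGF2BP2 and 46.1 and 46.3 in siIGF2BP3. Every knockdown library lay below both siControl libraries, and those of siIGF2BP3 were lowest. How many of all genes separated from siControl at 0 h was not counted, here and for the genes below. ZDHHC9 fell by 19.8% in siIGF2BP3 (log2 change -0.32, SE 0.0543, edgeR adjusted p 6.81e-05), fell by 13.1% in siIGF2BP2 (log2 change -0.20, SE 0.0534, edgeR adjusted p 0.00808) and fell by 10.8% in siIGF2BP1 (log2 change -0.16, SE 0.0536, edgeR adjusted p 0.0301). The siIGF2BP3 value stayed past the threshold without each library in turn. That in siIGF2BP2 was lost without siControl replicate 1 (-0.16) or siIGF2BP2 replicate 1 (-0.18), and that in siIGF2BP1 without siControl replicate 1 (-0.13) or either siIGF2BP1 library. On the ERCC scale the 3 changes were -0.24, -0.12 and -0.20 and none passed (edgeR adjusted p 0.139, 0.462 and 0.264). On that scale the siControl libraries stood at 50.4 and 41.9 reads per 1000 ERCC reads, further apart than on the TMM scale.

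BPNT2 was at 80.7 and 71.9 TMM CPM in siControl, 83.1 and 87.6 in siIGF2BP1, 88.6 and 83.2 in siIGF2BP2 and 83.2 and 84.7 in siIGF2BP3. All 6 knockdown libraries were above both siControl libraries. BPNT2 rose by 11.8% in siIGF2BP1 (log2 change 0.16, SE 0.0488, edgeR adjusted p 0.0183) and by 12.8% in siIGF2BP2 (log2 change 0.17, SE 0.0486, edgeR adjusted p 0.013), and the change of 0.14 in siIGF2BP3 did not pass (95% interval 0.04 to 0.24, edgeR adjusted p 0.0705). Without siControl replicate 2, the lower of the pair, the changes were 0.08, 0.09 and 0.06 and none passed. Without siControl replicate 1 they were 0.25, 0.26 and 0.22, and all 3 passed. The changes on the ERCC scale were 0.12, 0.25 and 0.21 and none passed (edgeR adjusted p 0.583, 0.0671 and 0.171). Leaving out siIGF2BP1 replicate 2 (0.12) or siIGF2BP2 replicate 1 (0.13) also lost the call in that knockdown.

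NDRG1 varied most between replicates. It was at 45.1 and 34.4 TMM CPM in siControl, 31.0 and 36.0 in siIGF2BP1, 33.2 and 39.6 in siIGF2BP2 and 32.6 and 28.0 in siIGF2BP3. Only the siIGF2BP3 libraries both lay below siControl. NDRG1 fell by 23.3% in siIGF2BP3 (log2 change -0.38, SE 0.108, edgeR adjusted p 0.0172), and it also passed on the ERCC scale (log2 change -0.32, edgeR adjusted p 0.0365). This rested on single libraries. Without siControl replicate 1 the change was -0.18 (edgeR adjusted p 0.558), without siIGF2BP3 replicate 2 it was -0.28 (edgeR adjusted p 0.277), and DESeq2 gave an adjusted p of 0.0964. In siIGF2BP1 and siIGF2BP2 the changes were -0.25 (95% interval -0.47 to -0.04, edgeR adjusted p 0.112) and -0.13 (95% interval -0.34 to 0.09, edgeR adjusted p 0.546).

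CYRIB and HUWE1 were nearly level across conditions. CYRIB was at 49.7 and 49.9 TMM CPM in siControl and at 49.0 and 49.6 in siIGF2BP3, and its changes were -0.02, 0.06 and -0.02 in siIGF2BP1, siIGF2BP2 and siIGF2BP3, with 95% intervals that reached at most from -0.12 to 0.16. Its libraries nevertheless lay above both siControl libraries in siIGF2BP2 and below both in siIGF2BP3. Separation of the libraries thus also occurred at changes this small. HUWE1 was at 492 and 479 TMM CPM in siControl and at 494 and 476 in siIGF2BP3. Its changes were 0.03, -0.01 and 0.00, with 95% intervals within -0.07 and 0.09.

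**Figure D1:**
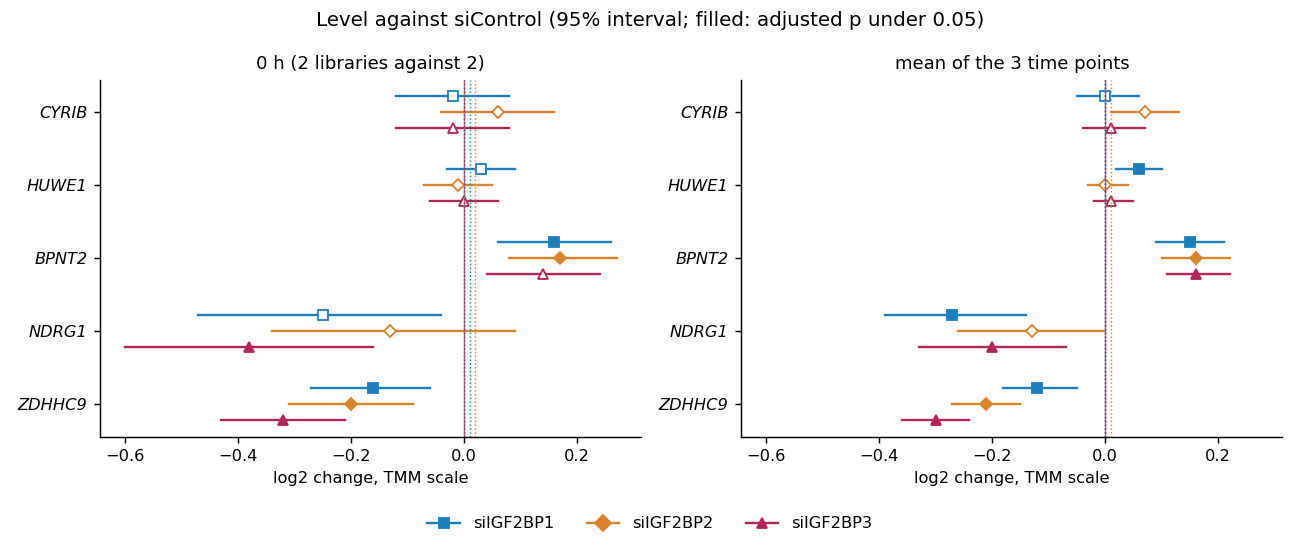
Log2 change against siControl on the TMM scale (horizontal axis) for each member (vertical axis) at 0 h (left) and averaged over the 3 time points (right), with 95% intervals from the edgeR fit for siIGF2BP1 (squares), siIGF2BP2 (diamonds) and siIGF2BP3 (triangles). Filled symbols have an adjusted p under 0.05 and dotted lines mark the medians of all genes. ZDHHC9 lies left of 0 and BPNT2 right of 0 in each knockdown, by at most 0.32 and 0.17.

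Averaging the 3 time points gave 6 libraries per condition and narrower intervals. On the TMM scale 4 of 5 members were called in siIGF2BP1 (39.7% of all genes), 2 of 5 in siIGF2BP2 (33.8% of all genes) and 3 of 5 in siIGF2BP3 (32.3% of all genes). ZDHHC9 was lower in each knockdown, by 0.12 (SE 0.0312), 0.21 (SE 0.0309) and 0.30 (SE 0.0316) on the log2 scale in siIGF2BP1, siIGF2BP2 and siIGF2BP3, with edgeR adjusted p of 0.00292, 7.14e-07 and 1.01e-09. BPNT2 was higher in each, by 0.15, 0.16 and 0.16 (SE 0.0285, 0.0282 and 0.0285, edgeR adjusted p 3.73e-05, 1.71e-05 and 1.75e-05). NDRG1 was lower in siIGF2BP1 (log2 change -0.27, SE 0.0638, edgeR adjusted p 0.000886) and siIGF2BP3 (log2 change -0.20, SE 0.0637, edgeR adjusted p 0.0153), the latter lost without any one of 6 libraries, which were siControl replicate 1 at each time and siIGF2BP3 replicate 2 at each time (-0.13 to -0.16). The change of HUWE1 in siIGF2BP1 was 0.06 (SE 0.0175, edgeR adjusted p 0.00531), and CYRIB passed in none, with an edgeR adjusted p of 0.0506 in siIGF2BP2 (0.07, SE 0.0281). That value of CYRIB did pass in 5 of 8 alternatives, fits without single libraries aside (log2 change 0.07 to 0.21). On the ERCC scale the median of all genes itself shifted by 0.06, 0.15 and 0.18. Distances from that median hardly change with the scale, since the scales differ by a factor per library that all genes share. Relative to it, ZDHHC9 in siIGF2BP3 was 0.30 lower and BPNT2 0.16 higher, as on the TMM scale. Unadjusted for the median, their changes were -0.12 (edgeR adjusted p 0.0448) and 0.34 (edgeR adjusted p 2.78e-10). ZDHHC9 did not pass on the ERCC scale in siIGF2BP1 (-0.06, edgeR adjusted p 0.438) or siIGF2BP2 (-0.08, edgeR adjusted p 0.227). On that scale CYRIB (0.21 and 0.19) and HUWE1 (0.14 and 0.19) were called higher in siIGF2BP2 and siIGF2BP3. So were 5800 and 6946 of all 13136 genes. Relative to the median of all genes, CYRIB stood at 0.06 and 0.01 and HUWE1 at -0.01 and 0.01. NDRG1 in siIGF2BP3 (-0.03) no longer passed on the ERCC scale.

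Whether siIGF2BP3 differed from the other knockdowns was tested directly. At 0 h no member passed in siIGF2BP3 against siIGF2BP1 (14.3% of all genes were called) or against siIGF2BP2 (9.19% of all genes) in edgeR. With no adjustment 1 and 2 members had a p under 0.05, and DESeq2 called 1 and 0. The member with the smallest p against siIGF2BP1 was ZDHHC9, which stood 0.15 lower on the log2 scale in siIGF2BP3 (log2 difference -0.15, 95% interval -0.27 to -0.04, edgeR adjusted p 0.0574). Against siIGF2BP2 its difference was -0.12 (95% interval -0.23 to 0.00, edgeR adjusted p 0.223), and that of NDRG1 was -0.26 (95% interval -0.48 to -0.04, edgeR adjusted p 0.156). For CYRIB, HUWE1 and BPNT2 the intervals of both differences lay between -0.18 and 0.11.

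**Figure D2:**
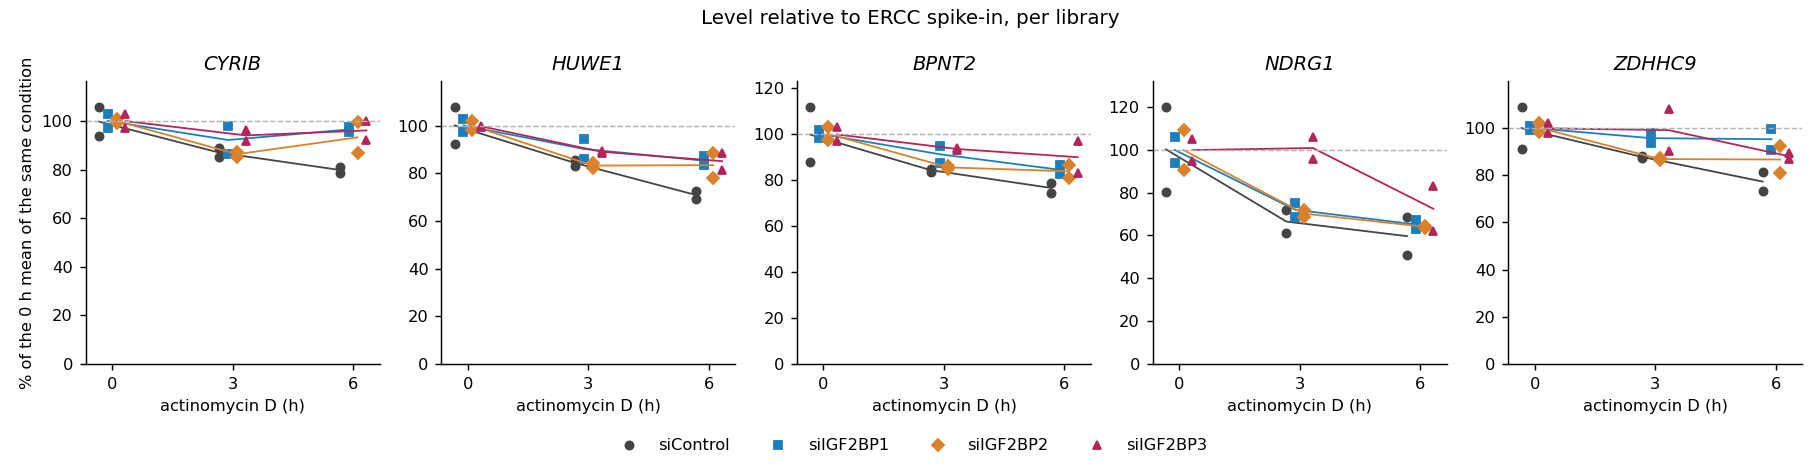
Reads per 1000 ERCC reads as a percent of the 0 h mean of the same condition (vertical axis, from 0) against hours of actinomycin D (horizontal axis), with 1 point per library, lines through the means, and symbols and colours for siControl (grey circles), siIGF2BP1 (blue squares), siIGF2BP2 (orange diamonds) and siIGF2BP3 (red triangles). HUWE1 reaches 71.0% in siControl and 83.5% to 85.3% in the knockdowns at 6 h, and the 2 siControl libraries of NDRG1 at 0 h stand at 120% and 80.3% of their mean.

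Decay was examined next, on the ERCC scale. In siControl all 5 members fell on this scale, but not on the TMM scale, during actinomycin D, as did 80.3% of all genes. Each had a slope nearer to 0 than the median gene. At 6 h CYRIB was at 79.9% ± 1.74 of its 0 h mean (SD, n = 2), ZDHHC9 at 77.3% ± 5.69, BPNT2 at 76.6% ± 3.08, HUWE1 at 71.0% ± 2.57 and NDRG1 at 59.6% ± 12.5 (SD, n = 2 each, SD of the 6 h libraries alone). CYRIB stood at 78.7% and 81.2% in its libraries, and NDRG1 at 68.5% and 50.8%. As a log2 change over 6 h, slopes were -0.32 for CYRIB (SE 0.0894, edgeR adjusted p 0.00232), -0.37 for ZDHHC9 (SE 0.0927, edgeR adjusted p 0.000958), -0.38 for BPNT2 (SE 0.0884, edgeR adjusted p 0.000443), -0.49 for HUWE1 (SE 0.0774, edgeR adjusted p 4.84e-06) and -0.74 for NDRG1 (SE 0.183, edgeR adjusted p 0.000809). The median of all genes was -0.88, with quartiles of -1.72 and -0.39. NDRG1 lost its call without siControl 0 h replicate 1 (-0.41, edgeR adjusted p 0.0549). Without that library BPNT2 had a slope of -0.21. In siIGF2BP1 3 of 5 members fell (69.1% of all genes fell), in siIGF2BP2 4 of 5 (71.3%) and in siIGF2BP3 2 of 5 (67.2%), HUWE1 and NDRG1, while the whole-transcriptome median moved from -0.88 in siControl to -0.69, -0.71 and -0.65.

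The direction of these slopes depends on the scale. On the TMM scale, which sets the bulk of transcripts to no change (median of all genes -0.02), CYRIB (0.55), ZDHHC9 (0.50), BPNT2 (0.49) and HUWE1 (0.38) rose and NDRG1 was at 0.13 (edgeR adjusted p 0.476). Their place among genes was nearly the same on both scales. The scales differ only by a factor per library that all genes share, so this likeness was built in and adds no evidence. The slope of CYRIB was above that of 78.5% of all genes on the ERCC scale and 78.7% on the TMM scale, with 75.9% and 76.1% for ZDHHC9, 75.2% and 75.7% for BPNT2, 69.0% and 69.1% for HUWE1 and 56.4% and 56.7% for NDRG1.

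**Figure D3:**
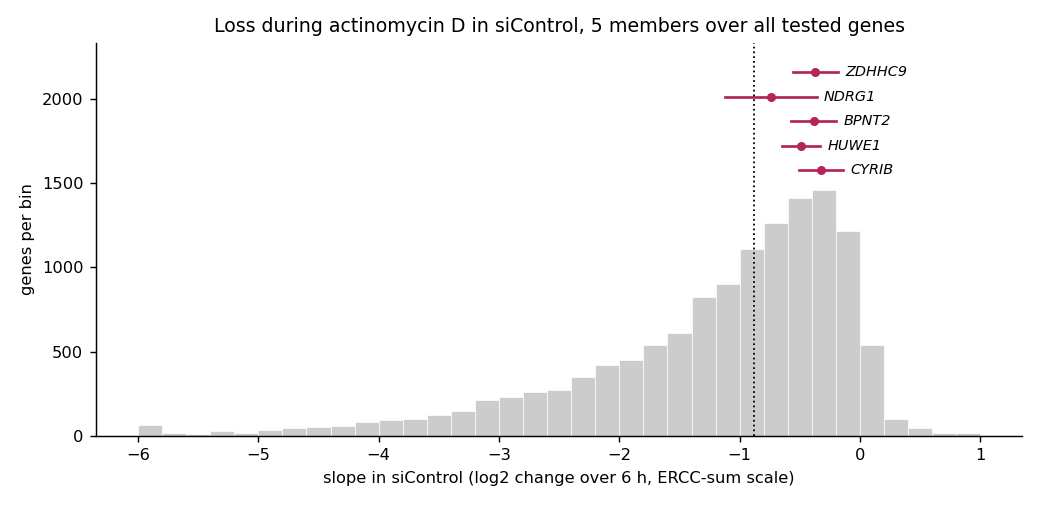
Number of genes per bin of 0.2 (vertical axis) by slope in siControl, the log2 change over 6 h on the ERCC scale (horizontal axis, the end bins hold all values beyond them), with the slopes and 95% intervals of the 5 members above the bars. The dotted line marks the median of all genes at -0.88, and the 5 members lie to its right, NDRG1 nearest at -0.74.

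Early and late loss were compared in siControl. On the ERCC scale 4 of 5 members fell from 0 to 3 h (61.3% of all genes fell) and 1 of 5, HUWE1, from 3 to 6 h (64.9% of all genes). On the TMM scale 4 of 5 rose in each step, beside 4565 (early) and 2904 (late) of all 13136 genes. NDRG1 did not pass on that scale (-0.12 and 0.26). The early call of CYRIB lay at the threshold (log2 change -0.20, edgeR adjusted p 0.0491) and was lost with a replicate block (edgeR adjusted p 0.0534). NDRG1 lost most early, with a log2 change of -0.59 from 0 to 3 h (SE 0.0982, edgeR adjusted p 8.07e-09) and -0.15 from 3 to 6 h (SE 0.0985, edgeR adjusted p 0.157). Its siControl libraries stood at 38.4 and 25.7 reads per 1000 ERCC reads at 0 h, and at 23.0 and 19.6 at 3 h. The SE rests on a spread estimated over all 12 groups, so it does not measure how far these libraries differed. The difference of -0.43 between both steps did not pass (95% interval -0.77 to -0.10, edgeR adjusted p 0.0818), and it ranged from -0.70 to -0.12 when each siControl library was left out. HUWE1 lost evenly, at -0.24 and -0.25. No member passed the test of early against late in edgeR (1 of 5 at an unadjusted p under 0.05, where 12.6% of all genes were called).

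Half-lifetimes followed the first-order equation of the study, with the mean of the rates at 3 and 6 h. In siControl they were 16.6 h for CYRIB (12.2 to 27.0 h when each library was left out in turn), 16.0 h for ZDHHC9 (10.6 to 35.9 h), 13.8 h for BPNT2 (8.77 to 38.6 h), 12.2 h for HUWE1 (9.20 to 18.8 h) and 6.23 h for NDRG1 (4.44 to 12.3 h). The median was 6.25 h over 11006 genes with a finite value. All 5 exceed the 6 h that were sampled, NDRG1 narrowly (8.05 h from the 6 h rate alone), so they are extrapolated and move much with a single library. In siIGF2BP3 the values were 53.8 h (34.9 to 121 h) for CYRIB, 58.6 h (25 to 117 h, with 5 of 6 left-out libraries giving a value) for ZDHHC9, 35.1 h (25.3 to 58.9 h) for BPNT2, 21.3 h (19.2 to 23.7 h) for HUWE1 and 27.3 h (18.0 to 60.2 h) for NDRG1. The median there was 7.03 h over 10192 of 12148 genes with a finite value. With the genes that did not fall counted as infinite it was 9.12 h, beside 7.15 h in siControl. Counted so, 72.4% of genes had a shorter half-lifetime than CYRIB in siControl and 78.0% in siIGF2BP3. These shares were 71.8% and 78.5% for ZDHHC9, 68.5% and 74.7% for BPNT2, 65.6% and 68.6% for HUWE1, and 45.2% and 72.1% for NDRG1. In siIGF2BP1 the half-lifetimes were 42.8 h, 61.0 h, 23.9 h, 22.9 h and 7.65 h in the same order of genes, and in siIGF2BP2 23.1 h, 19.6 h, 17.1 h, 15.2 h and 7.20 h. From the 6 h rate alone, siIGF2BP3 had 116 h for CYRIB, 32.7 h for ZDHHC9, 39.8 h for BPNT2, 25.9 h for HUWE1 and 12.9 h for NDRG1. The 3 h libraries of NDRG1 there stood at 106% and 95.5% of the 0 h mean. On the TMM scale CYRIB, ZDHHC9, BPNT2 and HUWE1 did not fall and had no half-lifetime in any condition.

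The comparison the time course was made for is the difference in slope between each knockdown and siControl. All 15 differences were positive on the ERCC scale, the direction of slower loss in the knockdown, but lay between -0.09 and 0.10 on the TMM scale, and none passed the test on either scale. In siIGF2BP3 they were 0.27 for CYRIB (95% interval 0.01 to 0.53, edgeR adjusted p 0.304), 0.26 for HUWE1 (0.04 to 0.49, edgeR adjusted p 0.29), 0.23 for BPNT2 (-0.03 to 0.49, edgeR adjusted p 0.337), 0.28 for NDRG1 (-0.27 to 0.83, edgeR adjusted p 0.544) and 0.19 for ZDHHC9 (-0.09 to 0.46, edgeR adjusted p 0.425). In siIGF2BP1 they were 0.27, 0.27, 0.14, 0.13 and 0.30 in the same order of genes, and in siIGF2BP2 0.22, 0.23, 0.13, 0.10 and 0.16. Thus 0 of 5 members were called by edgeR in each knockdown, beside 0.0152%, 0.0% and 0.0228% of all genes in siIGF2BP1, siIGF2BP2 and siIGF2BP3. With no adjustment 3, 1 and 2 members had a p under 0.05 (1436, 896 and 2113 of all genes), and DESeq2 called no member in any knockdown.

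Differences of this size were also seen over the whole transcriptome. The median slope difference of all genes was 0.19, 0.17 and 0.22 in siIGF2BP1, siIGF2BP2 and siIGF2BP3, beside 0.27, 0.16 and 0.26 for the 5 members. In siIGF2BP3 the members stood 0.05 (CYRIB), 0.04 (HUWE1), 0.01 (BPNT2), 0.06 (NDRG1) and -0.03 (ZDHHC9) from that median, and between 41.2% and 66.4% of all genes had a lower slope difference than they did. On the TMM scale, where the median of all genes was -0.01, the differences in siIGF2BP3 were 0.04 for CYRIB (95% interval -0.10 to 0.18), 0.03 for HUWE1 (-0.07 to 0.13), 0.00 for BPNT2 (-0.15 to 0.15), 0.04 for NDRG1 (-0.45 to 0.54) and -0.04 for ZDHHC9 (-0.24 to 0.16), each with an edgeR adjusted p of 1.0. ZDHHC9 in siIGF2BP1 stood 0.11 above the median of all genes on both scales, a distance that the scale hardly affects. At 6 h, HUWE1 was at 72.8% and 69.2% of its 0 h mean in siControl, 88.7% and 81.6% in siIGF2BP3, 87.2% and 83.5% in siIGF2BP1 and 78.3% and 88.7% in siIGF2BP2. The knockdown libraries lay above both siControl libraries in each case, as did those of CYRIB and BPNT2. How many of all genes separated in this way was not counted, so it is not read as a trait of the members. On the TMM scale at 6 h, HUWE1 in siIGF2BP2 overlapped siControl, and in siIGF2BP1 and siIGF2BP3 it lay above. The siControl libraries at 0 h held 761.6 and 666.4 gene reads per ERCC read, and this pair sets the starting point of every difference. Without siControl 0 h replicate 1 the differences in siIGF2BP3 were 0.18 for CYRIB and 0.16 for HUWE1, and that of NDRG1 turned to -0.05. Without replicate 2 they were 0.34 and 0.35 (edgeR adjusted p 0.0981 and 0.0549), and the calls over all genes went from 3 to 540.

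**Figure D4:**
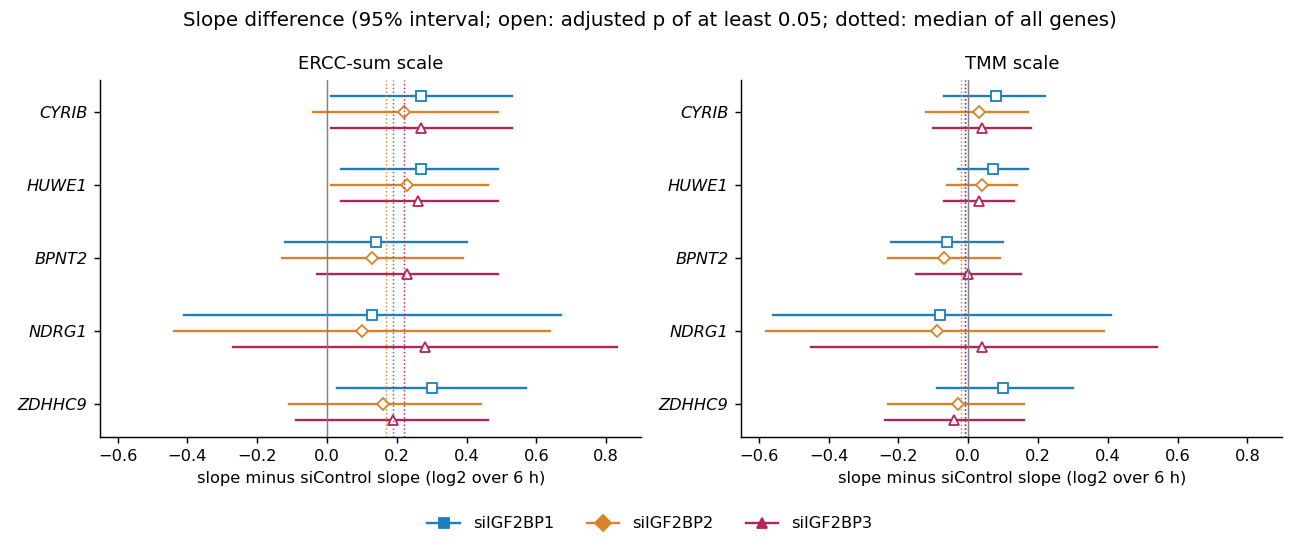
Slope in each knockdown minus slope in siControl, as log2 over 6 h (horizontal axis), for each member (vertical axis) on the ERCC scale (left) and the TMM scale (right), with 95% intervals from the edgeR fit for siIGF2BP1 (squares), siIGF2BP2 (diamonds) and siIGF2BP3 (triangles). All symbols are open, since no adjusted p was under 0.05. The dotted lines, the medians of all genes, lie at 0.17 to 0.22 on the left and -0.02 to -0.01 on the right, and the members lie around them in both panels.

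Slopes in siIGF2BP3 were also set against those in the other knockdowns, which removes siControl from the comparison. Against siIGF2BP1 the differences were 0.00 for CYRIB (95% interval -0.26 to 0.26), 0.00 for HUWE1 (-0.23 to 0.22), 0.09 for BPNT2 (-0.17 to 0.35), 0.15 for NDRG1 (-0.40 to 0.71) and -0.11 for ZDHHC9 (-0.39 to 0.16). Against siIGF2BP2 they were 0.05, 0.03, 0.10, 0.18 and 0.02 in the same order, with intervals between -0.38 and 0.73. No member passed in edgeR or DESeq2, none had an unadjusted p under 0.05, and 0.0% of all genes were called by edgeR in either comparison (272 and 246 genes at an unadjusted p under 0.05).

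Genes that work with the members were examined as 6 lists, of which 108 of 120 genes were tested. At 0 h 10 of 108 rose and 12 fell in siIGF2BP1, 9 rose and 5 fell in siIGF2BP2, and 6 rose and 5 fell in siIGF2BP3, that is 20.4%, 13.0% and 10.2%, beside 15.9%, 12.1% and 9.39% of all genes. By direction, 647 of all 13136 genes rose and 587 fell in siIGF2BP3, beside which the counts of single lists below are to be read. None of the 108 had a slope difference past the threshold in edgeR in any knockdown (21, 7 and 33 at an unadjusted p under 0.05, and 0, 0 and 1 in DESeq2).

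Among the m7G writer complex, the reader QKI, exosome subunits and XRN2, 3 of 16 rose in siIGF2BP3 and none fell. On the ERCC scale none of the 16 was called. EXOSC2, an exosome core subunit, was at 48.4 and 47.0 TMM CPM in siControl and 54.6 and 54.3 in siIGF2BP3 (log2 change 0.19, SE 0.054, edgeR adjusted p 0.0171), and DIS3L, a cytoplasmic exosome nuclease, at 71.2 and 72.6 against 78.4 and 85.3 (log2 change 0.18, SE 0.048, edgeR adjusted p 0.00907). Both pairs of libraries were separate. On the ERCC scale the changes of EXOSC2 and DIS3L were 0.27 each and did not pass (edgeR adjusted p 0.079 and 0.0569). On the TMM scale EXOSC2 lost its call without any one of the 4 libraries (0.17 to 0.21), and DIS3L without siControl replicate 1 (0.17) or siIGF2BP3 replicate 2 (0.12).

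Of 17 tested partners of CYRIB (RAC1, the WAVE and Arp2/3 complexes and the paralog CYRIA), 1 rose in siIGF2BP3 and none fell. It was WASF1, the WAVE1 subunit, at 15.4 and 17.0 TMM CPM in siControl and 21.5 and 20.3 in siIGF2BP3 (log2 change 0.37, SE 0.0847, edgeR adjusted p 0.00294), with changes of 0.27 and 0.37 in siIGF2BP1 and siIGF2BP2. Its call in siIGF2BP3 was lost without siControl replicate 1 (0.30) or siIGF2BP3 replicate 1 (0.33). Of 23 other HECT ligases, 1 rose and 3 fell in siIGF2BP3. NEDD4 rose in each knockdown, from 21.4 and 22.3 TMM CPM in siControl to 31.6 and 29.7 in siIGF2BP3 (log2 change 0.49, SE 0.0714, edgeR adjusted p 6e-06). WWP1 fell in siIGF2BP3 (log2 change -0.29, SE 0.041, edgeR adjusted p 3.31e-06) and siIGF2BP1 (log2 change -0.30) and had a change of 0.00 in siIGF2BP2. On the ERCC scale WASF1 (0.45) and NEDD4 (0.57) still passed in siIGF2BP3 and WWP1 (-0.21, edgeR adjusted p 0.183) did not.

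Of 14 tested genes of sulfate donor supply, sulfotransfer and related phosphatases, the setting of BPNT2, none passed in siIGF2BP3 in edgeR or DESeq2 (3 at an unadjusted p under 0.05). In siIGF2BP1 1 of these 14 rose and 4 fell at 0 h on the TMM scale, with a list median of -0.09 beside 0.01 for all genes, while on the ERCC scale none rose and 2 fell. Averaged over the 3 time points, 1 rose and 9 fell in siIGF2BP1 on the TMM scale (median -0.17), and 1 rose and 4 fell on the ERCC scale (median -0.11). Of all 13136 genes 2790 rose and 2428 fell there on the TMM scale (median 0.00). On the ERCC scale 3073 rose and 1011 fell (median 0.06). Of the 108 genes of all 6 lists, 28 rose and 28 fell in that TMM comparison (51.9%, beside 39.7% of all genes). In siIGF2BP2 2 of the 14 rose and 1 fell at 0 h on the TMM scale, and none passed on the ERCC scale. Of 16 tested hypoxia-responsive and NDRG family genes, 2 fell in siIGF2BP3 and none rose, with a list median of -0.16 beside 0.00 for all genes. SLC2A1, the glucose transporter GLUT1, was at 184 and 170 TMM CPM in siControl, 149 and 139 in siIGF2BP3 (log2 change -0.30, SE 0.0535, edgeR adjusted p 0.000134) and 104 and 115 in siIGF2BP1 (log2 change -0.70, SE 0.0541, edgeR adjusted p 1.48e-12). In siIGF2BP2 SLC2A1 was also called lower (log2 change -0.26, edgeR adjusted p 0.00057). BNIP3, a mitophagy receptor, was at 192 and 168 against 162 and 147 in siIGF2BP3 (log2 change -0.21, SE 0.0682, edgeR adjusted p 0.0408). Of the list, DESeq2 called SLC2A1 alone (1 of 16). BNIP3 lost its call without siControl replicate 1 (-0.11, edgeR adjusted p 0.589) or siIGF2BP3 replicate 2 (-0.15), the libraries on which the call of NDRG1 also rested. On the ERCC scale SLC2A1 and BNIP3 were at -0.22 and -0.14 and did not pass. Of 22 tested palmitoyltransferases and partners of ZDHHC9, 1 rose in siIGF2BP3 and none fell. It was ZDHHC20, at 53.9 and 53.7 TMM CPM in siControl and 62.9 and 62.7 in siIGF2BP3 (log2 change 0.22, SE 0.0511, edgeR adjusted p 0.00289), opposite in direction to ZDHHC9 and also called on the ERCC scale (0.30, edgeR adjusted p 0.0263). ZDHHC20 was likewise called higher in siIGF2BP1 (0.22, edgeR adjusted p 0.0015) and siIGF2BP2 (0.28, edgeR adjusted p 9.36e-05) on the TMM scale.

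The 24 libraries share the drug course, so transcripts of like stability correlate, and correlations are given as a description only. On log2 TMM CPM over the 24 libraries CYRIB and HUWE1 had an r of 0.964, BPNT2 had 0.916 with CYRIB and 0.920 with HUWE1, and ZDHHC9 had 0.654 to 0.846 with those 3. NDRG1 had 0.132 to 0.341 with the other 4. Of 9723 genes with a mean of at least 5 TMM CPM, the most like CYRIB were MAPK9 (r = 0.982) and EEF1A1P5 (0.981), the latter a processed pseudogene whose reads may come from EEF1A1. Those most like HUWE1 were PRPF8 (0.988) and AP2M1 (0.987), most like BPNT2 HMGN1 (0.968) and CPS1 (0.965), and most like ZDHHC9 PDLIM5 (0.970) and LPP (0.968). NDRG1 had lower values, with BNIP3L (0.663) and SLC2A3 (0.654) as the nearest.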

How the data were processed

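The authors added ERCC spike-in RNA per amount of total RNA, selected polyadenylated RNA and prepared stranded libraries. Reads were trimmed (Trimmomatic 0.39), aligned to hg38 (HISAT2 2.1.0) and assigned to GENCODE v29 genes by HTSeq. The HTSeq version, strand and overlap settings are not given in the sources used here. The deposited values are raw read counts, and 5 HTSeq summary rows (13.551% to 17.064% of each library) and 45 rows of the Y pseudoautosomal regions stayed out. Symbols matched for 58207 of 58676 rows. Positions and lengths are from GENCODE v44 on the same build. PCR duplicates could not be removed, and ERCC RNA added to purified RNA does not correct for cell number.

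Genes that reached a CPM of 1 in 2 or more libraries were tested with edgeR 4.0.16 (R 4.3.3, quasi-likelihood, two-sided, Benjamini-Hochberg over 13136 genes, threshold 0.05), with 12 group means and TMM scaling for levels and with an intercept and slope per condition and the ERCC sum as scale for decay. The early and late steps used the 12 group means with the ERCC sum. SE came from the effect and its F statistic, and 95% intervals from SE and the degrees of freedom of the fit. The study converted CPM to attomole by a linear fit on ERCC, which the ERCC sum replaces here. Half-lifetimes are ln2 over the mean rate at 3 and 6 h and have no test. DESeq2 1.42.0, other scales and filters, a replicate block, limma on means of same-numbered libraries and fits without each library were alternatives. The tests were checked on simulated counts. Named genes are the 5 members, the 3 siRNA targets, up to 2 called genes with the largest change at 0 h in siIGF2BP3 from each partner list, and the 2 genes most correlated with each member (pseudocount 0.5 TMM CPM). The members and lists were chosen with earlier results of these data known. METTL1 siRNA libraries were not analysed here.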

Additional observations from a re-analysis of the deposited data

How the results depend on the processing

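The lower level of ZDHHC9 in siIGF2BP3 kept its direction under every alternative run, and it passed under all of them except the ERCC-sum scale at 0 h. The direction of decay of single members did not keep across scales, and no alternative gave a member a called slope difference between a knockdown and siControl. With 2 libraries a group, single libraries moved many calls, although each member had at least 876 reads in every library.

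On the ERCC-sum scale the 0 h comparison called 649, 732 and 471 genes for siIGF2BP1, siIGF2BP2 and siIGF2BP3 (2093, 1593 and 1234 on the TMM scale), with 0, 0 and 1 members against 2, 2 and 2. It gave 875 genes for siIGF2BP3 against siIGF2BP1 and 382 against siIGF2BP2 (1879 and 1207), and 7203 over all times in siIGF2BP3 (4239). DESeq2 called 1 member at 0 h in siIGF2BP3 and 1 against siIGF2BP1, and with no filter 1 member was called against siIGF2BP2. The TMM scale gave 4163 genes for early against late decay (1651). On the library-size scale 3 members were called in siControl, all of them higher with time, and none with a called loss (5 on the ERCC-sum scale).

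Genes with a called slope difference in siIGF2BP1 (2) numbered 1 on the TMM scale, 5 on the library-size scale, 4 in DESeq2, 9 with no filter, 0 with the compared conditions alone, and 86 and 66 from the 0 h to 6 h change alone on the ERCC-sum and TMM scales. In siIGF2BP2 (0) they numbered 2 on the TMM scale, 5 on the library-size scale, 6 in DESeq2, 22 with no filter, and 72 and 62 from 0 h to 6 h alone. In siIGF2BP3 (3) they numbered 27 in DESeq2, 12 with no filter, 0 with the compared conditions alone, and 195 and 39 from 0 h to 6 h alone. The 0 h to 6 h change on the TMM scale was chosen after seeing the data. Against siIGF2BP1 (0), siIGF2BP3 had 8 on the TMM scale, 12 on the library-size scale, 4 in DESeq2 and 3 with no filter, and against siIGF2BP2 (0) it had 1, 1 and 3 on the TMM scale, the library-size scale and with no filter. The cause of these differences was not tested.

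Signs turned as follows. On the ERCC-sum scale HUWE1 at 0 h was 0.00, 0.07 and 0.08 in siIGF2BP1, siIGF2BP2 and siIGF2BP3, and 0.08 in siIGF2BP3 against siIGF2BP1. CYRIB in siIGF2BP3 was 0.07, BPNT2 in siIGF2BP3 against siIGF2BP1 was 0.09 and NDRG1 over all times in siIGF2BP2 was 0.00. HUWE1 was 0.00 at 0 h in siIGF2BP3 with the compared conditions alone and 0.00 over all times in siIGF2BP2 with no filter, CYRIB was 0.00 over all times in siIGF2BP1 with a CPM of at least 1 in every library, and ZDHHC9 was 0.04 for early against late on the TMM scale. Decay in siControl on the TMM scale, from 0 h to 6 h alone on that scale and on the library-size scale was 0.55, 0.55 and 0.23 for CYRIB, 0.38, 0.38 and 0.06 for HUWE1, 0.49, 0.49 and 0.17 for BPNT2, 0.50, 0.50 and 0.18 for ZDHHC9, and 0.13 and 0.14 on the first 2 for NDRG1. In that order slope differences were -0.06, -0.06 and -0.04 for BPNT2 and -0.08, -0.07 and -0.06 for NDRG1 in siIGF2BP1. In siIGF2BP2 they were -0.07, -0.07 and -0.03 for BPNT2, -0.09, -0.10 and -0.05 for NDRG1 and -0.03 and -0.03 for ZDHHC9. In siIGF2BP3 they were 0.00 and 0.00 for BPNT2 and -0.04, -0.04 and -0.01 for ZDHHC9. For siIGF2BP3 against siIGF2BP2 they were 0.00 for HUWE1 and 0.00 for ZDHHC9 on the TMM scale, and -0.02 for both on the library-size scale.

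Leaving out each library gave 1265 to 1412, 846 to 978 and 586 to 765 calls among genes at 0 h for siIGF2BP1, siIGF2BP2 and siIGF2BP3, and 0 to 2, 0 to 2 and 1 to 2 members. It gave 2 to 4 members over all times in siIGF2BP2, 1018 to 1880 genes and 0 to 1 members for early against late, and 0 to 12, 0 to 1 and 0 to 540 genes for slope differences. At 0 h in siIGF2BP2 HUWE1 ranged from -0.03 to 0.01 and NDRG1 from -0.31 to 0.08, and HUWE1 in siIGF2BP3 from -0.03 to 0.02. Over all times CYRIB in siIGF2BP1 ranged from -0.02 to 0.03, CYRIB in siIGF2BP3 from -0.01 to 0.04, and HUWE1 from -0.01 to 0.01 in siIGF2BP2. For early against late CYRIB ranged from -0.16 to 0.02, HUWE1 from -0.10 to 0.12, BPNT2 from -0.27 to 0.08 and ZDHHC9 from -0.13 to 0.13. Slope differences ranged from -0.03 to 0.27 for BPNT2 and -0.21 to 0.38 for NDRG1 in siIGF2BP1, from -0.04 to 0.26 and -0.23 to 0.36 in siIGF2BP2, and from -0.05 to 0.54 for NDRG1 in siIGF2BP3.

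Replicate numbers are shared by all groups, and deviations of same-numbered libraries correlated at -0.042 to 0.181 over 66 pairs of groups (median 0.0065), so the numbers were not taken to pair the samples. Within a condition, where libraries may share a transfected plate, they correlated at 0.015 to 0.031 in siControl, 0.001 to 0.028 in siIGF2BP1, -0.012 to 0.01 in siIGF2BP2 and 0.096 to 0.142 in siIGF2BP3 (3 pairs each). With the replicate block 2181, 1683 and 1316 genes were called at 0 h and ZDHHC9 in siIGF2BP3 had a log2 change of -0.32. The block moved 2 member calls past the threshold, BPNT2 at 0 h in siIGF2BP3 (edgeR adjusted p 0.0483) and CYRIB over all times in siIGF2BP2 (edgeR adjusted p 0.0459), and CYRIB from 0 to 3 h in siControl no longer passed (edgeR adjusted p 0.0534). Further alternatives were chosen after seeing the data. A replicate block within each condition gave 1 and 2 genes with a called slope difference in siIGF2BP1 and siIGF2BP2 and 0.01 for ZDHHC9 in early against late, and with it ZDHHC9 passed in siControl from 0 to 3 h (edgeR adjusted p 0.041) and from 3 to 6 h (edgeR adjusted p 0.0332). Under limma on the means of same-numbered libraries over the 3 time points (2 values a condition), ZDHHC9 in siIGF2BP3 was at -0.30 (limma adjusted p 1.44e-06), and the members called were those of the fit over 6 libraries.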
